A study of Drosophila melanogaster with 3 samples.

Results

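The genes described here encode the Mediator complex of Drosophila melanogaster. They were chosen by symbol in the Ensembl annotation, as protein-coding genes named MED plus a number together with kto, skd, Cdk8 and CycC, which gave 29 of 13968 protein-coding genes on the chromosomes used. Their promoters were examined in chromatin immunoprecipitation sequencing (ChIP-seq) peak lists for Trem, a zinc finger protein required for meiotic DNA breaks. The libraries came from whole embryos aged 0 to 14 hours, male and female pooled, of a transgenic line in which Trem carries enhanced green fluorescent protein (eGFP) at its C terminus, and the protein was precipitated with an anti-GFP antibody. There were 3 biological replicates of this single group, so no condition, stage or genotype was compared. The promoter that drives the fusion gene is not given in the sources used here, and libraries from embryos lacking the fusion were not analysed here. Peaks that depend on the tagged protein and peaks that do not therefore cannot be told apart, and a whole embryo mixes all cell types. The antibody field of the labels names trem, while their description names anti-GFP.

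Mediator is a large coactivator that links transcription factors bound at regulatory DNA to RNA polymerase II at promoters. Its head and middle modules contact the polymerase and its general factors, its tail module receives many activators, and MED14 is the scaffold that joins them. A separable kinase module holds the cyclin-dependent kinase Cdk8, its partner CycC, and the proteins kto and skd, the fly counterparts of MED12 and MED13. In flies kto and skd are known for roles in wing and eye patterning.

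The sequences below show what lay under the strongest Mediator peak of each module and, for contrast, at a pair of head module genes whose peaks missed the final list. Each is the longest stretch without annotated exon within 100 bp of the summit, from the RefSeq genome of the dm6 assembly, written on the strand of the Mediator gene. Capitals mark matches to the DRE (TATCGATA, the site of the factor DREF), the Motif 1 core (GGTCACAC, bound by M1BP), CGATA (the core site of the insulator protein BEAF-32), the TATA letters TATAAA, the E-box CAGCTG, or 8-letter words frequent in the other peaks. The first 5 are the strongest peaks of the head, middle, tail, scaffold and kinase genes, and MED28 was added after its sequence had been read because it holds 2 DRE matches.
MED17, chr3R:18188803-18189003, plus strand: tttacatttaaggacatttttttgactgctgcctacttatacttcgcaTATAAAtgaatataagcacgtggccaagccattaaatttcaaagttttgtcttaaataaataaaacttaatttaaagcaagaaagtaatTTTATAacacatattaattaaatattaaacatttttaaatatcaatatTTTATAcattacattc
MED7, chr3R:10761033-10761147, minus strand: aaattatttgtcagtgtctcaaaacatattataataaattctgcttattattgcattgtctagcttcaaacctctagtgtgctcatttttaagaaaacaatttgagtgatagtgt
MED30, chr3L:654166-654362, minus strand: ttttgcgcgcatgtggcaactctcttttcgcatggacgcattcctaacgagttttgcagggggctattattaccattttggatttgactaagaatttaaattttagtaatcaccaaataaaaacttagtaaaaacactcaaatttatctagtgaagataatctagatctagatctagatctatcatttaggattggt
MED14, chr3L:593059-593245, plus strand: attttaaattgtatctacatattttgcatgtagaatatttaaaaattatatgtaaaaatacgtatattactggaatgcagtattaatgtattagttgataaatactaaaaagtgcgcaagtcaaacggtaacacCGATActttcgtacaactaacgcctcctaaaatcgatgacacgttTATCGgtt
kto, chr3L:19836414-19836613, plus strand: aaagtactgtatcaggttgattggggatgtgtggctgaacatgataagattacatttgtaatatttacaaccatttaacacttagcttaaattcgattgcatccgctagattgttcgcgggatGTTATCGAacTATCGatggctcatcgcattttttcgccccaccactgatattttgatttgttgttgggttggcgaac
MED28, chr3R:25476916-25477002, plus strand: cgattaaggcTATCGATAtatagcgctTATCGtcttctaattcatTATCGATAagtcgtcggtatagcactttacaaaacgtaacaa
MED11, chr3L:18745741-18745855, plus strand: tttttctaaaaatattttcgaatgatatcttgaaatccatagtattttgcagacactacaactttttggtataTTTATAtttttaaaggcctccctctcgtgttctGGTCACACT
MED18, chrX:1865836-1865908, plus strand: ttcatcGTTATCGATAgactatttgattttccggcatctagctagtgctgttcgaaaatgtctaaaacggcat
The printed stretch of MED30, the strongest member, has no capitals, and neither has that of MED7. The single DRE of MED7 lies outside its printed stretch, near the edge of the 100 bp searched. That of MED17 holds only TATA letters, 3 matches in all. MED14 and kto each hold 2 CGATA matches. MED11 holds a Motif 1 core next to its transcription start site (TSS) and MED18 a DRE, although the peaks of both missed the final list, and the stretch of MED18 does not reach its summit. This pair does not stand for all members that missed the list. The corresponding stretches of MED20 and MED22 hold no match, that of MED26 only TATAAA and that of skd only GAGAGA. The window of MED20 holds a Motif 1 core outside its stretch.

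Most Mediator genes had a Trem-eGFP peak at a promoter. A gene counted as having a peak when a peak kept by the authors' irreproducible discovery rate (IDR) step had its summit within 500 bp of any of its TSSs. By this measure 23 of the 29 genes, or 79.3%, had a peak, against 41.7% of all protein-coding genes. All 29 had some peak of the pooled reads in that window, as had 58.8% of all genes. Most members have few start sites. Of the 24 Mediator genes with a single TSS 20 had a peak, against 36.4% of all genes with a single TSS. No test over genes was run, and these counts are descriptions.

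The count was above the background in each replicate, but it varied between them. When each replicate list was reduced to its 7477 strongest peaks, the length of the IDR list, 22 Mediator genes had a peak in replicate 1, 23 in replicate 2 and 19 in replicate 3. The corresponding shares were 75.9%, 79.3% and 65.5%, a mean of 73.6% ± 7.18 (SD, n = 3). Among all genes the shares were 40.6%, 41.4% and 40.4%. In all 3 replicates 16 members had a peak, or 55.2%, against 34.3% of all genes. The 3 Mediator shares lay above all 3 shares of all genes.

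**Figure D1:**
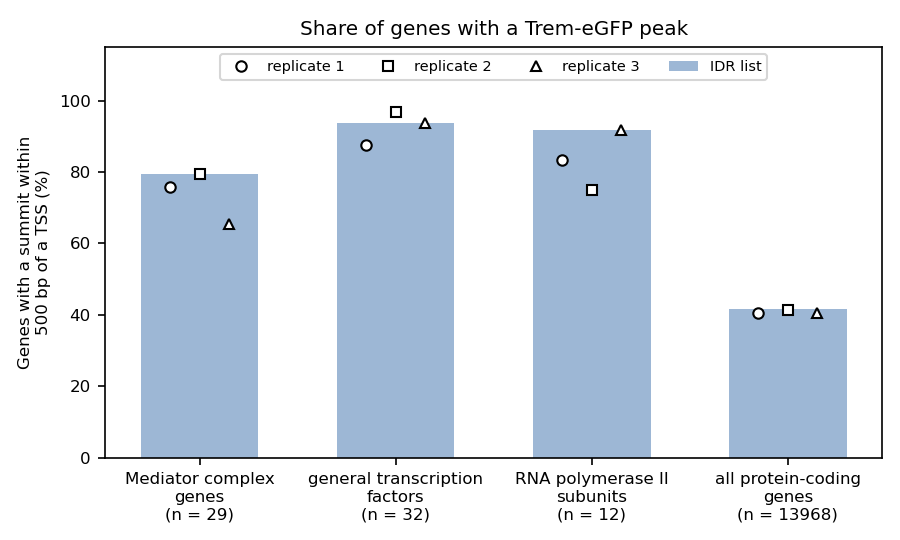
Share of genes with a summit within 500 bp of a TSS (y axis, percent) for 4 gene sets (x axis). Bars give the IDR list and points the 7477 strongest peaks of each replicate; the Mediator points lie between 65.5% and 79.3%, and those of all genes between 40.4% and 41.4%.

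The shares were higher in the IDR list for other genes of the basal transcription machinery. Of 32 general transcription factor genes 30 had a peak, and 92.7% ± 4.77 did in the replicate lists (SD, n = 3). Taf3 and Taf8, which encode subunits of TFIID, had none. Of 12 RNA polymerase II subunit genes 11 had a peak, 83.3% ± 8.33 in the replicate lists (SD, n = 3), and Polr2G had none. The polymerase replicate shares overlapped those of Mediator, while each of the 3 shares of the general factors lay above each of the 3 Mediator shares. In all 3 replicates 26 of the 32 general factor genes and 9 of the 12 polymerase genes had a peak. The matching shares were 55.2% of Mediator genes and 34.3% of all genes.

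The Mediator peaks were of middling strength. Signal values were set by the authors' peak calling and are compared only within a list. They ran from 144.4 to 12213.6 in the IDR list. The 24 IDR peaks at Mediator genes had a median signal of 229.9, against 294.4 for the other 4670 promoter peaks. The strongest, at MED30, had 750.2 and rank 537 of 7477, so no member was among the 500 strongest peaks and 5 were among the 1000 strongest. Matching shares of the other promoter peaks are not given for these limits. With the list divided into 4 equal parts by rank, the strongest peaks per gene numbered 7, 3, 8 and 5 from the strongest part to the weakest, which held 29.7%, 27.1%, 24.0% and 19.2% of the other promoter peaks. The strongest peaks per gene had a median signal of 221.3 at Mediator genes, against 329.3 over all genes with a peak. Those of the general factors had a median of 367.8, with the highest, 1949.4, at the TFIIH gene Ssl1. The polymerase genes had a median of 327.8. Taf10 and Taf10b share a peak, which was counted for both.

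**Figure D2:**
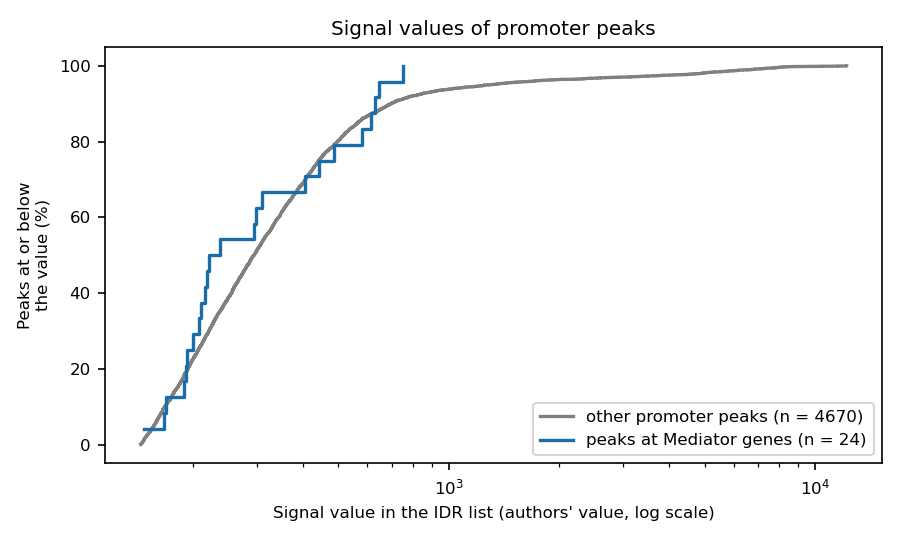
Cumulative share of promoter peaks (y axis, percent) by signal value in the IDR list (x axis, log scale). The 24 Mediator peaks have a median of 229.9 and stop at 750.2, while the 4670 other promoter peaks have a median of 294.4 and reach 12213.6.

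In the head module 3 of 7 genes had a peak, the lowest share of the modules as placed here, beside 41.7% of all genes. Replicate ranks given from here on are those of the strongest summit within 100 bp of the IDR summit, or, where it is said or there is no IDR peak, of the strongest at the TSS. MED17, the large core subunit of the head, ranked 726, 630 and 1108 in replicates 1, 2 and 3, with signals of 323.2, 193.5 and 144.8 on the scales of those lists. It ranked 724 in the IDR list with a signal of 646.3. MED6, a conserved head subunit near the polymerase, ranked 1252, 755 and 989 in the replicates and 901 in the IDR list (579.5). It had another IDR peak, of rank 3211 and signal 297.5, at a second start site, where the summit lay 11 bp downstream. These were strong in every replicate. MED8, which in yeast holds the MED18 and MED20 pair, differed between replicates. It ranked 3178 in replicate 1 but 11276 and 12392 in replicates 2 and 3, where a summit 331 bp upstream had rank 11471 in replicate 3, and 5624 in the IDR list (191.9).

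The other 4 head genes had pooled peaks below the IDR list, whose last signal was 144.4. At MED18 the pooled peak had signal 128.4 and rank 8283, and the replicate ranks at its TSS were close together, at 7962, 7650 and 8601. MED11, whose product pairs with MED22 in yeast, had a pooled rank of 8653 (121.9). Replicate 2 alone had a stronger peak there, of rank 4701, against 11813 and 11261 in replicates 1 and 3. MED20 had a pooled rank of 9107 (115.1) and replicate ranks of 8354, 7385 and 14713. MED22 had the lowest rank of all members, 10631 (96.5), with a summit 457 bp upstream. Each of the 4 thus had a weaker peak in the pooled reads, and none was without one. Replicate 1 placed 3 of the 7 head genes among its strongest 7477 peaks, replicate 2 placed 4 and replicate 3 placed 2. Of all genes 40.6%, 41.4% and 40.4% had a peak in those lists.

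In the middle module 8 of 9 genes had a peak, beside 41.7% of all genes. An IDR peak was also required to recur within 100 bp among the strongest 7477 peaks of 2 replicates, with the other set aside. The count was then 4, 4 and 5 of 9 without replicates 1, 2 and 3, beside 33.4%, 33.6% and 34.5% of all genes. MED7, which in yeast forms a hinge with MED21, was the strongest, with replicate ranks of 729, 972 and 944 and an IDR rank of 788 (616.1). MED31, a small conserved subunit, ranked 941, 2554 and 1390 and had an IDR rank of 1319 (486.5). MED9 ranked 3252, 645 and 1605 and was thus weaker in replicate 1 than in replicate 2, with an IDR rank of 1575 (443.2). MED4, the partner of MED9 in the middle module, ranked 4185, 3782 and 2429 and had an IDR rank of 3251 (295.0). These 4 were among the strongest 7477 in every replicate.

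The remaining middle genes had weaker peaks that were found less evenly. MED10 ranked 2928 and 3817 in replicates 1 and 2 and had no summit within 500 bp of its TSS in replicate 3 (IDR rank 4326, 238.4). MED21 ranked 3072 in replicate 1 and 19751 in replicate 2, and had none in replicate 3 (IDR rank 6425, 168.9). The IDR peak of MED21 was thus strong in replicate 1 only. MED1, a subunit that binds nuclear receptors in mammals, ranked 3444, 7811 and 7547 (IDR rank 5328, 200.6). MED19 had peaks at its TSS in all 3 replicates at ranks 3794, 2906 and 4145, but at different places. In replicate 1 the summit lay 88 bp upstream of the TSS, and in replicates 2 and 3 it lay 85 and 87 bp downstream, while the IDR summit lay 22 bp upstream (rank 4784, 221.3). MED26, which recruits elongation factors in mammals, had no IDR peak. Its pooled peak of rank 7627 (141.1) just missed the list and lay 430 bp downstream of the TSS in an intron of MED26, and in replicate 1 a summit of rank 6202 lay 101 bp upstream.

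All 8 tail genes had a peak, beside 41.7% of all genes. When a summit counted only for the gene with the nearest TSS, 4 of the 8 did, beside 31.2% of all genes. The tail signals ran from the highest of all members, at MED30, to the lowest, at MED15, with a median of 260.6. MED30 ranked 631, 515 and 522 in the replicates, with signals of 348.3, 213.1 and 203.9, and 537 in the IDR list (750.2). MED27 ranked 583, 1688 and 1169, and 762 in the IDR list (630.1). MED23, which in mammals is a target of the Ras-regulated activator ELK, ranked 3146, 1053 and 2094, and 1895 in the IDR list (405.7). MED23 was weakest in replicate 1, where it stood near MED16. MED16 ranked 2933, 2805 and 3750 (IDR rank 3006, 310.2). MED24 and MED28 had IDR ranks of 5113 (208.3) and 5057 (210.9) and replicate ranks between 3286 and 6899.

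MED25 and MED15, both known in other animals as direct contacts of activators, were the weakest tail genes. MED25 had an IDR rank of 5695 (189.9), with a summit 319 bp upstream, and replicate ranks at its TSS of 6646, 4542 and 4731, of which the summits of replicates 1 and 2 lay over 100 bp from the IDR summit. MED15 was the last member inside the IDR list, at rank 7347 (147.3), and ranked 10827, 5555 and 6931 in the replicates. MED27, MED28 and MED30 are placed in the tail here, and some schemes count them with the head. With that placement the head had 6 of 10 and the tail 5 of 5 genes with a peak, beside 41.7% of all genes.

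With the modules as placed here, the peaks of MED14 and of the kinase genes had signals below the median signals of the head, middle and tail genes. The head median rests on 3 genes. With MED27, MED28 and MED30 in the head and MED14 in the middle, the tail median was 208.3, and MED14 and kto lay above it. MED14 ranked 4562 and 4851 in replicates 2 and 3 and had no summit near its TSS in replicate 1 (IDR rank 4851, 218.6). In the kinase module 3 of 4 genes had a peak, beside 41.7% of all genes. Their median signal was 192.9, against 579.5 in the head, 266.7 in the middle and 260.6 in the tail. Single genes of those modules were weaker than MED14 and kto, such as MED8 (191.9), MED1 (200.6) and MED15 (147.3). The kto gene ranked 7040, 3485 and 4239 (IDR rank 4899, 216.7), CycC ranked 5199, 6523 and 8145 (5594, 192.9), and Cdk8 ranked 7165, 5307 and 6330 (6485, 167.3). All 3 lay past the middle of the IDR list, as did most members with a peak. The skd gene had no IDR peak, although replicates 2 and 3 had peaks of rank 5471 and 3574. These lay 471 bp downstream and 246 bp upstream of its nearest TSSs. The strongest pooled peak, 434 bp downstream in an intron, had rank 7577 and signal 142.1, just below the list.

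**Figure D3:**
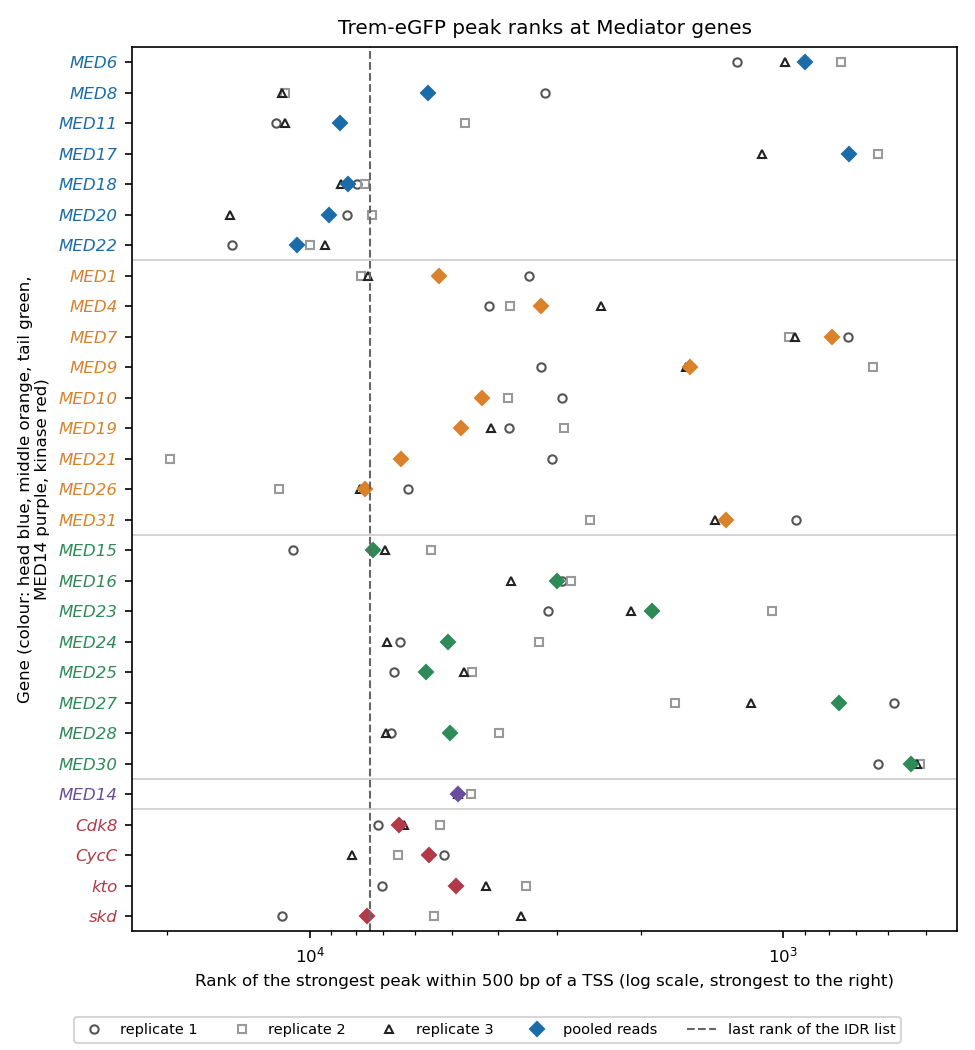
Rank of the strongest peak within 500 bp of a TSS (x axis, log scale, strongest to the right) for each of the 29 genes (y axis, by module), in the pooled reads and in each replicate list. The dashed line marks rank 7477, where the IDR list ends; MED11, MED18, MED20, MED22, MED26 and skd have their pooled peak to its left, and MED14, MED10 and MED21 lack a point for 1 replicate.

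Of the 23 strongest peaks per gene, 14 had a summit within 100 bp among the strongest 7477 peaks of all 3 replicates, and 18 in the whole replicate lists. For the other promoter peaks these shares were 66.8% and 86.8%. The replicate lists were used to make the IDR list, so this is no separate evidence. When a replicate was set aside and an IDR peak had to recur in the top lists of the remaining pair, there were 16 genes without replicate 1, 14 without replicate 2 and 16 without replicate 3. These smaller peak sets held between 5003 and 5208 peaks and gave peaks at 33.4%, 33.6% and 34.5% of all genes. MED1, MED8, MED19, MED21 and MED25 were lost in each. The IDR list itself still came from all 3 replicates, and recurrence required a summit within 100 bp. MED19 and MED25 had a peak among the strongest 7477 at the TSS in all 3 replicates. Some of these summits lay over 100 bp from the IDR summit, so such losses also reflect summit position.

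Summits lay just upstream of the TSS. Of the 24 peaks 22 were upstream, the median position was -78.5 bp, and 15 were within 100 bp. The median of the other promoter peaks was -73.0 bp, and 84.3% of them were upstream. The exceptions were MED15 and the second peak of MED6, both 11 bp downstream. In the strongest peaks of each replicate the median position at Mediator genes was -89.5, -64.0 and -93.0 bp. The farthest summits were those of MED25 and MED31, 319 and 207 bp upstream, and the nearest were those of Cdk8, 11 bp upstream, and the 2 downstream ones.

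Most Mediator promoters face another gene. Of the 29 genes, 21 had a head-to-head neighbour, meaning a protein-coding gene on the other strand that starts within 1000 bp upstream. That is 72.4% against 36.2% of all genes. Of these 21 genes 17, or 81.0%, had a peak, against 72.0% of all genes with such a neighbour. This order turned when a replicate was set aside and IDR peaks had to recur within 100 bp in the top lists of the remaining pair. The count was then 11, 10 and 12 of 21 without replicates 1, 2 and 3, against 58.8%, 60.1% and 62.0% of all such genes. With neighbours within 500 bp only, it was 15 of 19, against 80.5%. Of the 8 without one, namely MED4, MED11, MED14, MED21, MED24, MED26, Cdk8 and kto, 6 had a peak, against 24.4% of all genes without one. In 15 of the 23 cases the strongest peak lay within 500 bp of the TSS of another protein-coding gene as well. The same share was not computed for other promoter peaks, so whether this is particular to Mediator genes was not tested. In 16 of the 23 cases the Mediator TSS was the nearest one, at MED9 in a tie with CG42518. Over all genes 41.7% had a peak, and 31.2% had one when a summit counted only for the nearest TSS. A peak between the pair was counted for both genes, and which promoter it serves was not tested.

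Above a signal of 400, a limit set after the values were seen, there were 8 Mediator genes, and each had a head-to-head neighbour, with its TSS between 19 and 365 bp away. They were 8 of the 17 members with such a neighbour and a peak, or 47.1%, against 42.5% of all such genes. Of all genes with a peak but no such neighbour 28.4% lay above the limit, and 0 of 6 members did. MED30 shares its peak with Rev1, a translesion DNA polymerase gene, whose TSS is 97 bp from the summit and so nearer than that of MED30. MED17 shares its peak with CG12321, MED27 with elm, and MED7 with the condensin II gene Cap-H2. MED6 shares its peak with the acetyltransferase gene Naa80, whose TSS is 2 bp from the summit, and MED31 with CG9775 and with slx1, a gene for a nuclease subunit. MED9 shares its peak with the nuclear pore gene Nup75, and with CG42518, annotated from the same TSS as MED9. MED23 shares its peak with Gmer, a gene of nucleotide sugar synthesis. The 6 members with a peak but without a head-to-head neighbour had signals from 167.3 to 295.0. Among all genes the medians were 355.2 with such a neighbour and 288.2 without.

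Weaker shared peaks were at MED16 with CG11170, MED10 with PDCD-5, MED28 with CG4553, MED19 with CG7430, MED8 with CG8929, MED25 with the heparan sulfate sulfotransferase gene Hs6st, and CycC with UQCR-C1, a gene of respiratory complex III. The summit at CycC lay in the 5' untranslated region of UQCR-C1. MED1 and MED15 had neighbours, ORMDL and CG4297, at 859 and 813 bp, whose TSSs were too far from the summit to share it. MED15 and CG4297 had separate peaks. MED18, MED20 and MED22, without an IDR peak, face Gcna, Trf and CG43867 at 74, 47 and 164 bp. MED22 also faces Lztr1 at 557 bp, whose TSS is the nearest to the pooled summit, at 100 bp, and none of these neighbours had an IDR peak either. Trf encodes a TBP-related factor, so MED20 and another transcription gene share a promoter region that missed the IDR list. Trf was not among the 32 general transcription factor genes compared above. Pdss2, which faces skd at 481 bp, had an IDR peak of rank 1839 that did not lie within the skd window.

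**Figure D4:**
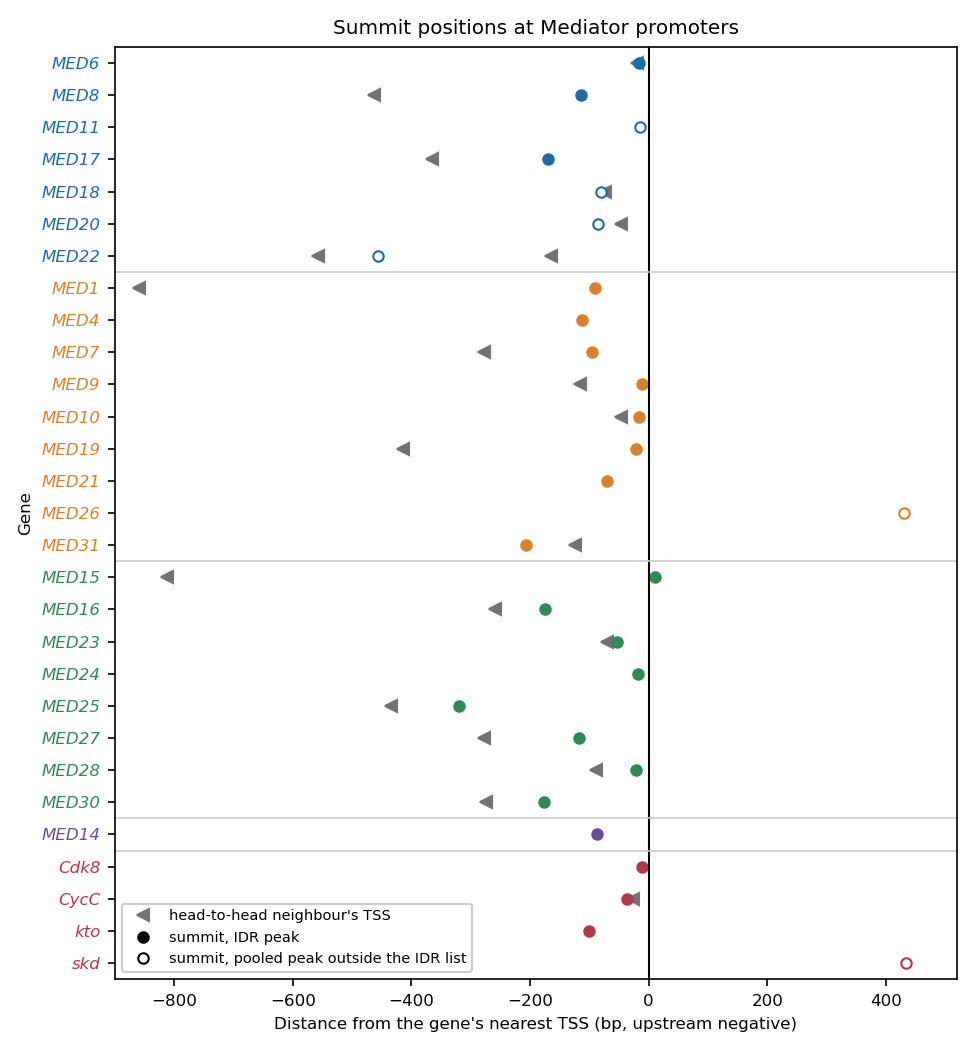
Position of the strongest summit (x axis, bp from the gene's nearest TSS, upstream negative) at each of the 29 genes (y axis), filled for IDR peaks and open for pooled peaks outside the IDR list, with triangles at the TSS of head-to-head neighbours. The filled summits lie between 319 bp upstream (MED25) and 11 bp downstream (MED15).

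A minority of the Mediator peaks held the DRE or the Motif 1 core. The bases within 100 bp of the 24 summits were searched on both strands. The DRE (TATCGATA) was found in 3 windows, those of MED7, MED8 and MED28, or 12.5%, against 13.8% of other promoter peaks and 1.29% of promoters without a pooled peak. The Motif 1 core (GGTCACAC) was found in 5 windows, those of MED10, MED15, MED19, MED23 and MED24, or 20.8%, against 10.7% and 0.504%. No window held both, and 8 of the 24 held either, against 1076 of the 4670 other promoter peaks. Over all protein-coding promoters, in windows of the same length, the DRE was found in 8.20% and the Motif 1 core in 6.31%. A match is a description of the sequence and shows no binding by DREF or M1BP.

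CGATA, which is also part of the DRE, was in 10 windows (41.7%, against 49.6% of other promoter peaks and 39.3% of all promoters). They include MED14, Cdk8 and kto, which have neither the DRE nor the Motif 1 core. CAGCTG was in the windows of MED23, MED25, Cdk8 and CycC (16.7%, against 14.6% and 13.4%). TATAAA was in 8 windows (33.3%, against 34.6% and 34.7%). GAGAGA, the letters of GAGA factor sites, was in none of the 24, and in 7.04% of other promoter peaks and 9.39% of all promoters. Both MED6 windows and those of MED4, MED16 and MED30 held none of these 6 motifs, 20.8% against 20.7% of other promoter peaks. The 4 members with the strongest peaks, MED30, MED17, MED27 and MED7, held no Motif 1 core, and only MED7 held a DRE.

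Among words of 8 letters found in at least 2% of the other IDR windows, the 5 with the highest ratio to promoters without a pooled peak were chosen without the Mediator peaks. The first was GGTCACAC, the Motif 1 core itself, in 6.96% of the other IDR windows and 0.504% of those promoters. AGTGTGAC overlaps it and was in 5 Mediator windows, or 20.8%, against 9.34% of other promoter peaks and 5.37% of all promoters. CGGTCACA, which also overlaps it, was in 3 (12.5%, against 6.02% and 3.62%), and ACGGTCAC was in that of MED15 alone (4.17%, against 4.26% and 2.48%). GTTATCGA, which overlaps the DRE, was in those of MED7, MED8 and kto (12.5%, against 7.13% and 4.42%). The GC content of the Mediator windows had a median of 35.3%, from 21.9% at MED17 to 49.8% at MED19, against a median of 35.8% at other promoter peaks.

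**Figure D5:**
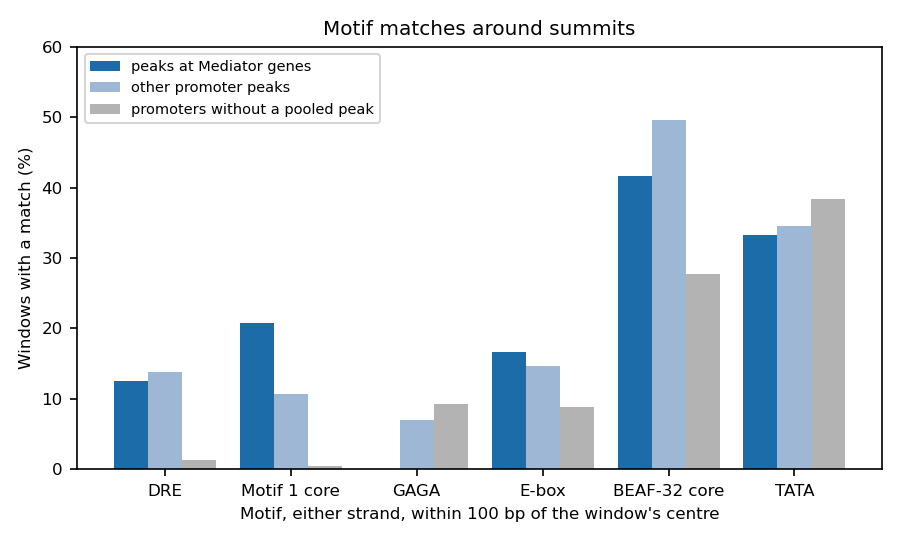
Share of windows, reaching 100 bp to each side of the centre, with a match on either strand (y axis, percent) for 6 motifs (x axis), at the 24 Mediator peaks, at 4670 other promoter peaks and at 5758 promoters without a pooled peak. The Motif 1 core is in 20.8%, 10.7% and 0.504% of them and the DRE in 12.5%, 13.8% and 1.29%.

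Peaks were found on each of the large autosomal arms. All 8 genes on 3R and all 4 on 2R had a peak, against 43.1% and 41.7% of all genes there. On 3L 10 of 12 and on 2L 1 of 2 had one, against 42.0% and 39.4%. Neither of the 2 genes on X, MED18 and MED22, had one, nor had MED26, the only member on chromosome 4. Over all genes 41.9% of those on X and 41.2% of those on chromosome 4 had a peak.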

How the data were processed

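The deposited files were ChIP-seq peak lists on dm6 in narrowPeak format, from 3 replicates of 1 group. Per the file lists deposited with the samples, a replicate list derives from 1 alignment and a file also used for control normalization, the pooled list from the 3 alignments and that file, and the IDR list from these 4 lists. The replicate and pooled lists held 30000 peaks each and the IDR list 7477, which were the 7477 strongest pooled peaks. The signal value per peak is the authors' and is on the scale of its own deposited list. The deposited -log10 q-value is the same for every IDR peak and was not used. For aligner, peak caller and settings the sources used here give nothing. Depth is unknown because no read counts were analysed, so counting intervals are left out. A list of fixed length reaches weaker peaks where a library is shallower.

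Summits (start plus summit offset, counted from 1) were assigned with Python 3.11.15 to every annotated TSS within 500 bp in Ensembl release 115 (BDGP6.54, dm6 coordinates). Every peak ended within its chromosome in the RefSeq genome used for sequences. Protein-coding genes on the assembled chromosomes entered. Summits within 100 bp in different lists counted as the same. Motif windows reached 100 bp to each side of a summit, or of the point 73 bp upstream of the outermost TSS for promoters without a peak. The gene assignment and motif search were tested on simulated data. In the comparison lists, 2 of 58 entries were not matched, and 44 genes were left after older symbols were merged. The members, lists and tests were chosen with earlier results of these data known. Every member is named, with the neighbours that share its promoter. The labels give the replicates separate biosamples of 1 line and do not say whether they were collected on separate days, so the SD covers only the spread between these samples. Alternatives were other TSS windows, motif windows, summit tolerances, peak thresholds and module placements. Each replicate was also set aside in turn by keeping IDR peaks that recurred in the top lists of the remaining pair.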

Additional observations from a re-analysis of the deposited data

How the results depend on the processing

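The number of Mediator genes with a peak was 23, beside 41.7% of all genes. It was 22 with a TSS window of 250 bp and 24 with 1000 bp, beside 36.9% and 45.0% of all genes. When a summit counted only for the gene with the nearest TSS it was 17, beside 31.2% of all genes. It was 19 when the peak had to cover the TSS, beside 29.7%. In the stronger part of the IDR list, divided at its middle, it was 10 of 29, against 26.9% of all genes, with 4 in the middle module, 4 in the tail, and 0 for MED14 and for the kinase module. With any pooled peak all 7 head genes counted, beside 58.8% of all genes. With the nearest TSS only, 4 of 8 tail genes remained, beside 31.2% of all genes. Of the 21 genes with a head-to-head neighbour 11 then remained, beside 43.3% of all such genes. With MED27, MED28 and MED30 in the head, the head had 6 of 10 and the tail 5 of 5, beside 41.7% of all genes. With 1 replicate set aside at a time, IDR peaks had to recur within 100 bp in the top lists of the remaining pair. The total then lay between 14 and 16, beside 33.4% to 34.5% of all genes. The middle module lay between 4 and 5 and MED14 between 0 and 1. The genes with a head-to-head neighbour lay between 10 and 12 of 21, below the 58.8% to 62.0% of all such genes in each case. The median summit position lay between -96.0 and -54.0 bp. Fewer peaks entered these sets.

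The median rank was 4784 in the IDR list and 3178, 3634 and 3994 in replicates 1, 2 and 3, over the 20 to 22 peaks found there. The peaks found in all 3 replicates were 9 when summits had to lie within 50 bp. For other promoter peaks the share is given at 100 bp only. With 50 bp to each side of the summit the DRE was in 1 of the 24 windows, the Motif 1 core in 3, CGATA in 6, TATAAA in 4, AGTGTGAC in 3 and GTTATCGA in 1. Of other promoter peaks 8.44%, 5.31%, 32.5%, 20.2%, 4.58% and 4.09% held them, in that order. With 200 bp the DRE was in 5, GAGAGA in 2, TATAAA in 14, ACGGTCAC in 2 and GTTATCGA in 5. The shares of other promoter peaks were then 18.8%, 14.5%, 54.5%, 7.07% and 10.1%. The counts of the general factor and polymerase lists ranged from 25 to 30 and from 9 to 11 under the TSS windows and replicate omissions run. The alternatives for the summit position, the replicate omissions for the head-to-head genes and the comparison lists, and the nearest TSS count of head-to-head genes were chosen after seeing the data. No paired analysis was possible because all samples form a single group.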

Other observations

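The gene intersex (ix, FBgn0001276), which RefSeq lists under the synonym MED29, falls outside the choice by symbol and was added after its values were seen. It is known for its part in female sexual differentiation. It had no IDR peak. Its pooled peak had rank 9636 and signal 107.3, with its summit at -473 bp from its TSS. The replicate ranks were 22108 in replicate 1 and 9821 in replicate 3, and replicate 2 had no summit within 500 bp.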
